A study of Mus musculus with 43 samples.

Results

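The genes described here are 9 mouse genes of blood clotting, clot breakdown and the cell surfaces where both take place: F10, F7, F5, F13a1, F3, F11r, Thbs1, Plaur and Plau. They were picked by symbol, by matching the gene identifiers of the deposited count and TPM tables to these 9 names. TPM is a transcript's share of its library after scaling by length, so it allows levels of different genes to be compared. All 9 were found among the 56941 gene identifiers of the tables.

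Clotting begins when tissue factor (F3), a membrane protein, binds factor VII (F7) and the complex activates factor X (F10). Activated factor X with its cofactor factor V (F5) makes thrombin, thrombin makes fibrin, and factor XIII, whose catalytic A subunit is F13a1, cross-links the fibrin strands. Urokinase (Plau), held at the cell surface by its receptor (Plaur), activates plasminogen, which dissolves fibrin. Most circulating clotting factors are made by the liver, but marrow monocytes and macrophages also transcribe several of these genes, and thrombosis is a leading complication of JAK2V617F-driven myeloproliferative neoplasms. Thbs1 encodes thrombospondin 1, a large adhesive protein released by platelets and monocytes. F11r is named after the F11 antibody that binds its product, junctional adhesion molecule A (JAM-A), which joins epithelial, endothelial, platelet and leukocyte surfaces, and it does not encode clotting factor XI.

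The study followed a small JAK2V617F clone in the marrow of otherwise wild-type mice. Unconditioned wild-type CD45.1 mice received 5000000 whole-marrow cells that carried JAK2V617F and the CD45.2 marker, and marrow was taken about 7 months later. Bulk RNA-seq was made from sorted cells of each mouse. The transplanted mice gave 3 sorts. Host cells were the CD45.1 wild-type cells of the 7 transplanted mice (4 male, 3 female), donor cells were the CD45.2 JAK2V617F cells of the same 7 mice, and BMT stroma was the CD45-negative, lineage-negative fraction of those mice. Control cells were CD45.1 cells of 8 age- and sex-matched wild-type mice that received no transplant (4 male, 4 female), and control stroma came from 8 such mice. A further set of male mice, 52 weeks after transplantation, gave CD45.1 CD11b-positive myeloid cells from 3 transplanted mice and 3 wild-type controls. No group received normal marrow, so an influence of the JAK2V617F clone and one of transplantation itself cannot be told apart. Donor cells also differ from control cells in CD45 type. The promoter or Cre behind the JAK2V617F allele is not given in the labels, and neither are the ages of the mice, which were matched. Each library came from 1 animal, and final blood chimerism, which the labels give without a unit, lay between 0.63 and 5.99 in the 7 transplanted mice, against at most 0.00392 in their controls.

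Total counts per library were 16302572 to 19048243 in host cells, 16343361 to 19683698 in donor cells and 15713119 to 18560231 in control cells. They were 41210646 to 63970034 in BMT stroma and 50733339 to 143228988 in control stroma. CD11b cells had 32478800 to 44853593 counts in transplanted mice and 35526852 to 42976716 in control mice. Jak2 itself stood at 43.1 to 61.5 TPM in host cells, 35.9 to 52.6 TPM in donor cells and 47.1 to 66.7 TPM in control cells, and gene counts do not separate the mutant from the wild-type allele. The donor library of mouse N204 carries a donor title but a recipient-derived source label. Its summed B cell markers (14.2 TPM) lay within the 9.65 to 25.0 TPM of the donor libraries and below the 63.4 to 255 TPM of the host libraries. By its title it was kept with the donor cells, and each donor result was also computed without it. Ptprc, which encodes CD45, was at 15.1 to 91.9 TPM in BMT stroma and 18.2 to 84 TPM in control stroma, against 228 to 370 TPM in host, donor and control cells.

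Promoter windows of the 3 genes that rose in both host and donor cells are shown, since the results turn on them. Each window runs on its gene's own strand over 250 bases before and 50 bases after the annotated start (RefSeq, build GRCm38.p6). F10 lies at chr8:13037058-13037357, F7 at chr8:13025784-13026083 and F11r at chr1:171437311-171437610, all on the plus strand. Capitals mark a motif found by the search.
F10: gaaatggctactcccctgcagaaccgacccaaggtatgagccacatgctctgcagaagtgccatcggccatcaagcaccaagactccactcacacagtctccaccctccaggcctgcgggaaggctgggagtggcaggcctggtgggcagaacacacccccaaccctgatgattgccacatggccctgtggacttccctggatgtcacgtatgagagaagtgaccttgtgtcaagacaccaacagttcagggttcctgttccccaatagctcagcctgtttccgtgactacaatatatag
F7: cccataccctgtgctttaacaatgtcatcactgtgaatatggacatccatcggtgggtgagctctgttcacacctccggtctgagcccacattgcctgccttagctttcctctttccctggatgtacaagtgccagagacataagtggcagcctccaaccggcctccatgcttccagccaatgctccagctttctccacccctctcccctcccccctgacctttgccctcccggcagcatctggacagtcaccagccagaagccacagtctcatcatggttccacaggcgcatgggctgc
F11r: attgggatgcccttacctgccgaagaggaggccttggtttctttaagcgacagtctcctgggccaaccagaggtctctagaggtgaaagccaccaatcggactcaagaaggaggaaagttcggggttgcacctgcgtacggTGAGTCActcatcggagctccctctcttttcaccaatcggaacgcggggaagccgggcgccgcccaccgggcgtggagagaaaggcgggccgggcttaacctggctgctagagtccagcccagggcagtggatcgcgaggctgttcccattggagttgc

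Both strands of the windows were searched for 5 motifs. These were the STAT palindrome TTCNNNGAA, present in 8.3% of 32851 windows of this length, TTGCNNAA for C/EBP in 10.8%, AGGAAGT for PU.1 in 9.4%, TGANTCA for AP-1 in 7.8% and AGATAA for GATA factors in 11.2%. The F10 and F7 windows held none of these letters. The F11r window held 1 AP-1 match, whose first base lies 109 bases before the start. Of the 9 genes, 7 had a window. F3 held 2 AP-1 matches, Plaur held 1 AP-1 and 1 C/EBP match, the second F13a1 start held 2 PU.1 matches, and the first F13a1 start and the F5 window held none. A match here is a run of letters, not a measured binding site. In the RefSeq gene order F7 is the gene directly before F10, and Proz, which encodes protein Z, directly follows F10.

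In marrow cells sorted by CD45, F10, F7 and F11r were higher in transplanted than in control mice, both in the wild-type host cells and in the JAK2V617F donor cells. F13a1 rose slightly in host cells. The calls of F7 and F13a1 were lost under some alternative fits, while those of F10 and F11r held in all of them. F5, F3, Thbs1, Plaur and Plau did not pass in either comparison, although Thbs1 and F3 passed in donor cells under some alternative fits. In host cells, 4 of the 9 genes were called higher and 0 lower by edgeR's quasi-likelihood test with Benjamini-Hochberg adjustment over all genes tested, where 8.61% of 14073 genes were called higher and 7.82% lower. In donor cells, 3 of 9 were called higher and 0 lower, where 22.7% of 13906 genes were called higher and 23.0% lower. All 9 genes passed the filter on low counts in every comparison described here. The host and donor comparisons share the same 8 control libraries, so their values stand side by side and are not independent. The 9 genes were chosen with earlier results of these data known, so setting these counts beside the shares is not a test.

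**Figure D1:**
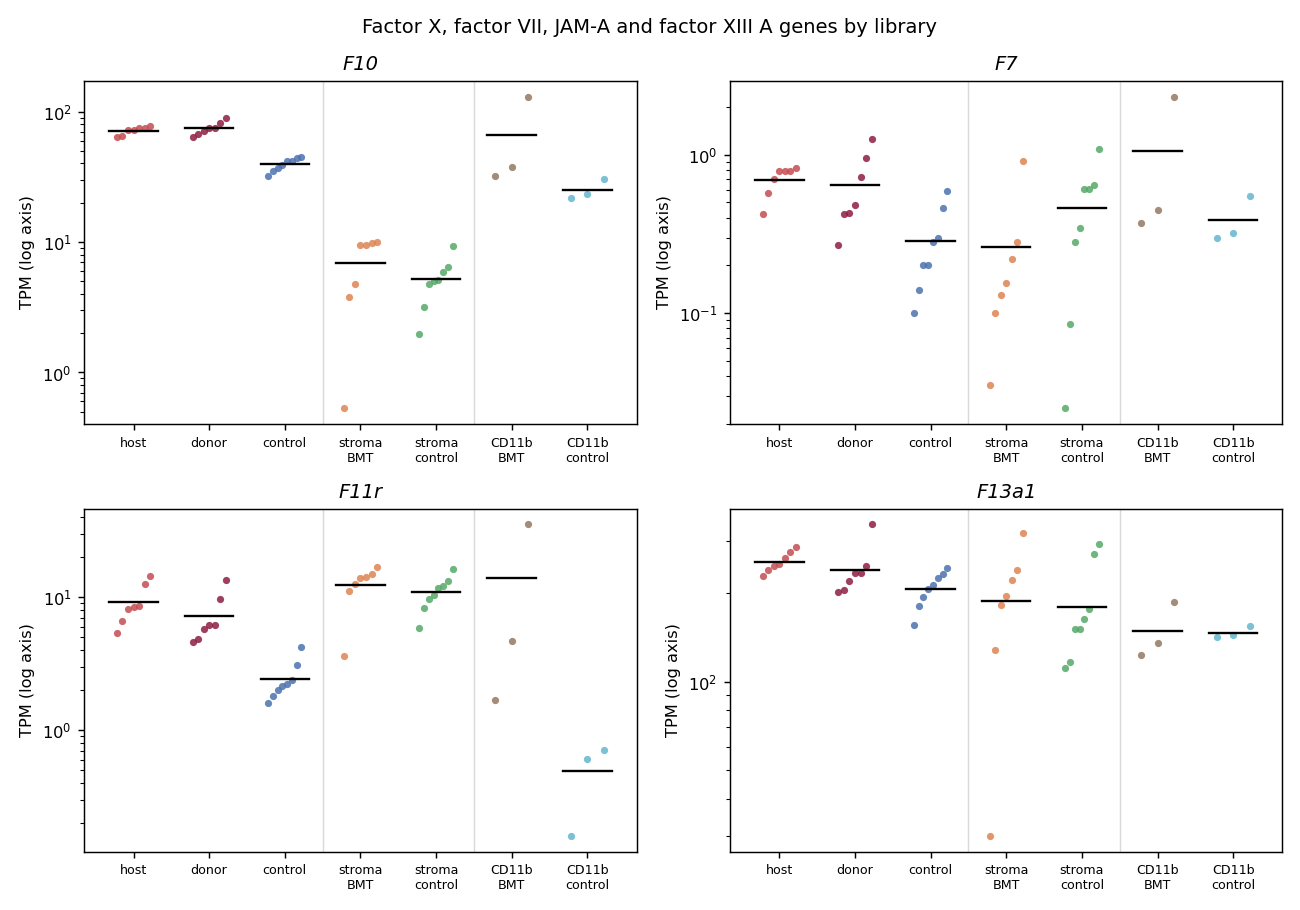
TPM of F10, F7, F11r and F13a1 in each library (points, logarithmic axis) of the 7 groups, with the group mean as a black line. All host and donor points of F10 and F11r lie above the highest control point (44.6 TPM for F10, 4.22 TPM for F11r), while those of F7 and F13a1 overlap the control points.

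F10, the zymogen of the protease that makes thrombin, had a lowest, median and highest value of 63.6, 72.7 and 77.5 TPM in host cells. In donor cells it had 64, 75.2 and 89 TPM, and in control cells 32.2, 40.2 and 44.6 TPM. Every host and every donor library lay above every control library. The fold change was 1.71 in host cells over control cells (95% interval 1.57 to 1.87, log2 0.78 ± 0.06 SE, edgeR adjusted p = 1.23e-06). It was 1.83 in donor cells over control cells (1.67 to 2.00, log2 0.87 ± 0.07, edgeR adjusted p = 1.42e-08). By mean TPM, F10 ranked 1966 among all genes in host cells and 3407 in control cells.

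F11r, which encodes JAM-A, had 5.4, 8.54 and 14.4 TPM (lowest, median, highest) in host cells. In donor cells it had 4.64, 6.18 and 13.6 TPM, and in control cells 1.61, 2.19 and 4.22 TPM. Again no host or donor library reached down into the control range, although the transplanted mice differed among themselves more than for F10. The fold change was 3.62 in host cells (2.90 to 4.52, log2 1.86 ± 0.16, edgeR adjusted p = 2.3e-06), the largest of the 9 genes in that comparison. In donor cells it was 2.75 (2.14 to 3.53, log2 1.46 ± 0.19, edgeR adjusted p = 6.32e-06). F10 and F11r were thus the 2 of 9 genes with no overlap. Over all genes tested, 1.40% had every host TPM above every control TPM, and 4.14% had every donor TPM above every control TPM.

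F7, the protease partner of tissue factor, was scarce in all these cells. It had 0.42, 0.79 and 0.82 TPM in host cells, 0.27, 0.48 and 1.26 TPM in donor cells, and 0.1, 0.24 and 0.59 TPM in control cells, from as few as 14, 8 and 5 reads per library in host, donor and control cells. The ranges overlapped: 5 of 7 host and 3 of 7 donor libraries exceeded the highest control. The fold change was 1.86 in host cells (1.40 to 2.49, log2 0.90 ± 0.21, edgeR adjusted p = 0.00879) and 1.91 in donor cells (1.28 to 2.87, log2 0.94 ± 0.30, edgeR adjusted p = 0.0163). When mice were blocked by their day of euthanasia, edgeR gave log2 0.73 in host cells (adjusted p = 0.129) and 0.63 in donor cells (adjusted p = 0.126). In 1 sex alone it also missed the threshold in host cells, at log2 1.11 in males (edgeR adjusted p = 0.0659) and 0.69 in females (edgeR adjusted p = 0.333). In donor cells it missed the threshold in females (log2 0.47, edgeR adjusted p = 0.365) and on the log2(TPM + 1) scale (log2 0.34, limma adjusted p = 0.0528).

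F13a1, the fibrin-linking transglutaminase subunit, was abundant. It had 228, 250 and 285 TPM in host cells, 201, 233 and 341 TPM in donor cells, and 155, 209 and 242 TPM in control cells. The ranges overlapped, with 5 of 7 host and 2 of 7 donor libraries above the highest control. The fold change of 1.19 in host cells (1.06 to 1.33, log2 0.25 ± 0.08, edgeR adjusted p = 0.0474) lay just inside the threshold and passed in 9 of 26 alternative fits. Leaving out host library N014, N032, N203, N269, N005 or N204, or control library N277, N208, N288, N051, N002 or N283, singly, ended the call (edgeR adjusted p = 0.0562 to 0.105). The day block gave log2 0.21 (edgeR adjusted p = 0.201). In donor cells the fold change was 1.13 (0.99 to 1.29, edgeR adjusted p = 0.15).

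Thbs1 and Plaur were the most abundant of the 9 genes per length, Thbs1 ranking 176 and Plaur 189 among all genes by mean TPM in host cells, against 127 and 185 in control cells. Thbs1 had 421, 891 and 1176 TPM in host cells, 391, 771 and 1123 TPM in donor cells, and 472, 1124 and 1732 TPM in control cells. The libraries spread widely and the groups overlapped, with 1 host and 1 donor library below the lowest control. Thbs1 was 0.735 times the control level in host cells (0.527 to 1.03, edgeR adjusted p = 0.226) and 0.685 times in donor cells (0.491 to 0.956, edgeR adjusted p = 0.0787). The donor value crossed the threshold under the day block (log2 -0.67 ± 0.22, edgeR adjusted p = 0.0353), without the gene filter (edgeR adjusted p = 0.00856), without donor library N203 (edgeR adjusted p = 0.0219) and without control library N051 (edgeR adjusted p = 0.028).

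Plaur, the urokinase receptor, had 651, 776 and 900 TPM in host cells, 628, 788 and 1019 TPM in donor cells, and 646, 823 and 874 TPM in control cells, with broad overlap. Its fold change was 0.981 in host cells (0.852 to 1.13) and 0.995 in donor cells (0.848 to 1.17). Plau, urokinase itself, was far lower, at 7.07, 8.4 and 8.77 TPM in host cells, 7.23, 9.41 and 10.3 TPM in donor cells, and 6.46, 8.27 and 10.4 TPM in control cells. No host or donor library left the control range. The intervals for Plau allowed folds of 0.827 to 1.08 in host cells and 0.929 to 1.21 in donor cells.

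F5, the cofactor of activated factor X, had 22.5, 35.1 and 44.7 TPM in host cells, 28.7, 34.1 and 50.5 TPM in donor cells, and 18.7, 36.3 and 44.3 TPM in control cells. The 3 groups overlapped over most of their range, with log2 changes of -0.02 in host cells (edgeR adjusted p = 0.953) and 0.09 in donor cells (edgeR adjusted p = 0.677). F3, tissue factor, was low, at 2.17, 3.52 and 4.26 TPM in host cells, 1.54, 2.79 and 4.68 TPM in donor cells, and 2.3, 3.43 and 6.02 TPM in control cells. Its log2 change was -0.31 in host cells (edgeR adjusted p = 0.361) and -0.45 in donor cells (edgeR adjusted p = 0.135), and the donor value passed without donor library N203 (log2 -0.60, edgeR adjusted p = 0.0383). Of the initiating trio, F7 and F10 were therefore called higher while F3 was not called.

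**Figure D2:**
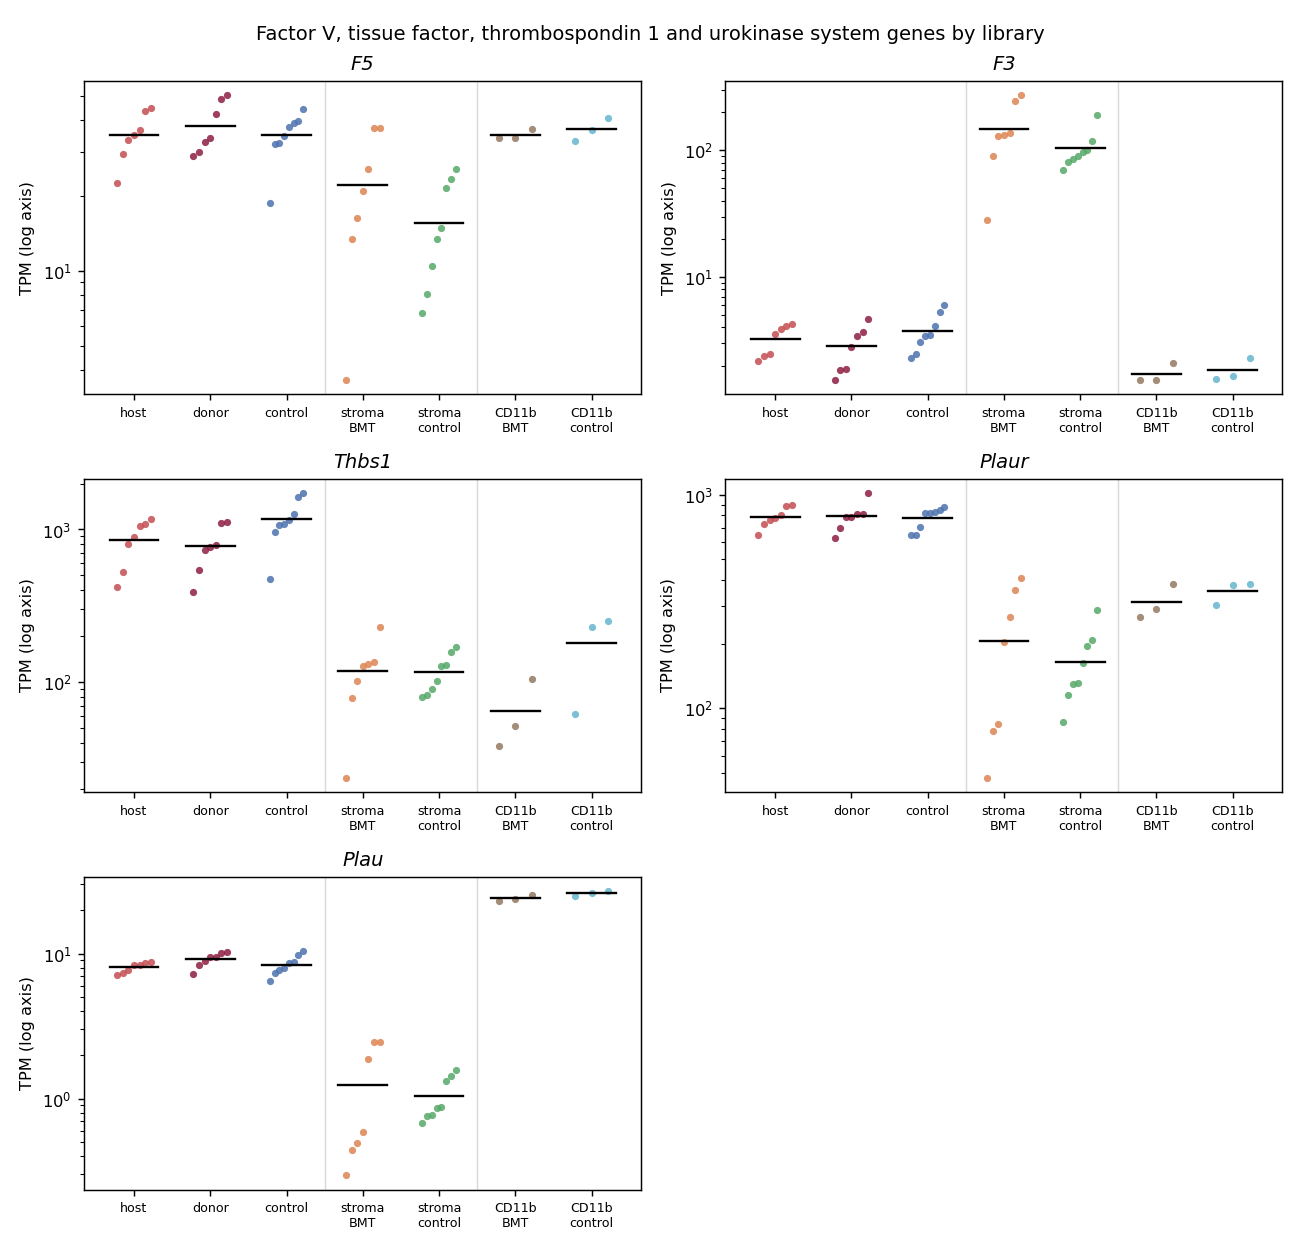
TPM of F5, F3, Thbs1, Plaur and Plau in each library (points, logarithmic axis) of the 7 groups, with the group mean as a black line. Host, donor and control points overlap for all 5 genes, F3 is far higher in the 2 stroma groups than in CD45-sorted cells, and Plau is highest in CD11b cells.

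Markers of monocytes and macrophages moved along with these groups. The 6 monocyte markers summed to 2841 to 3587 TPM in host cells and 2814 to 3624 TPM in donor cells, against 2383 to 2784 TPM in control cells, with no overlap and medians 1.29 and 1.32 times the control median. Of the 6, 3 rose in each comparison and none was at 0. The 10 macrophage markers summed to 89.4 to 179 TPM in host cells, 60.5 to 127 TPM in donor cells and 58.4 to 71 TPM in control cells. Of those tested, 7 of 8 rose in host cells and 4 of 7 in donor cells, while Marco was at 0 in every library of the 3 groups. The 9 megakaryocyte and platelet markers overlapped, at 36.4 to 86 TPM in host cells, 36.4 to 90.9 TPM in donor cells and 40.3 to 58.3 TPM in control cells. B cell markers fell in host cells (6 of 6) and in donor cells (6 of 6), and T cell markers fell in donor cells (6 of 6). Neutrophil sums overlapped the control range, with medians 0.681 (host) and 0.818 (donor) times the control median, and 0 of 9 markers were called. Erythroid sums overlapped as well, with medians 0.789 and 0.334 times the control median in that order. Of 8 erythroid markers, 0 were called in host cells, while 2 rose and 4 fell in donor cells. The part of cell makeup in the changes of the 9 genes was not tested, and in bulk samples fewer cells of a type and less RNA per cell cannot be told apart.

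**Figure D3:**
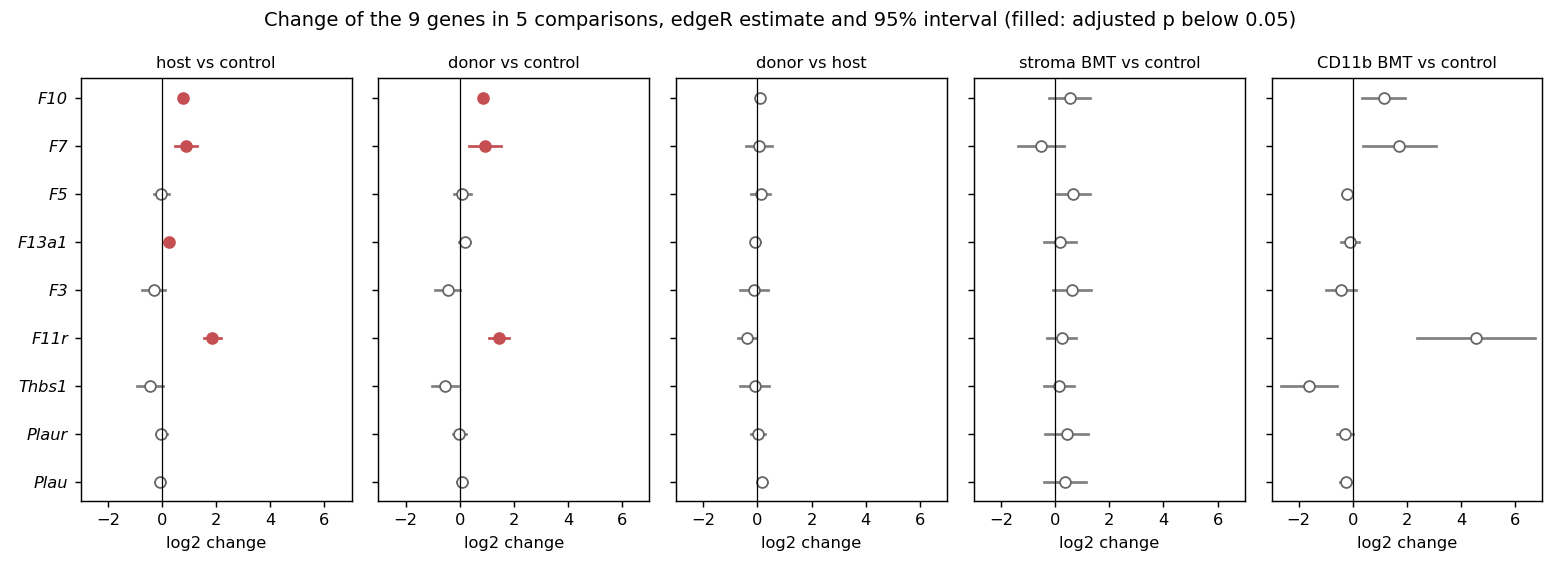
Log2 change of each of the 9 genes with its 95% interval in 5 comparisons, each against its own control except donor against host. Filled points passed an adjusted p of 0.05: F10, F7, F11r and F13a1 in host cells, and F10, F7 and F11r in donor cells.

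JAK2V617F donor cells and wild-type host cells of the same 7 mice were then compared. None of the 9 genes passed the edgeR test without the animal as a block (0 of 9, 1 at an unadjusted p below 0.05, 0 by DESeq2 and 0 by limma-voom), where 14.1% of 13662 genes were called. F10 was 1.07 times as high in donor as in host cells (0.976 to 1.17, edgeR adjusted p = 0.387), and F11r 0.764 times (0.605 to 0.966, edgeR adjusted p = 0.154). Donor and host libraries of a mouse are paired by the labels, and with the animal as a block both passed, in a fit that called 33.7% of all genes, so 2 of 9 is not above that share. The blocked edgeR fit gave log2 0.09 ± 0.03 for F10 (adjusted p = 0.0328) and -0.39 ± 0.09 for F11r (fold 0.762, adjusted p = 0.00428).

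Within single mice the F10 ratio of donor to host TPM was close to 1, with log2 ratios of -0.09 to 0.29 (median 0.05), above 0 in 5 of 7 mice. F11r was lower in the donor cells of 5 of 7 mice, with log2 ratios of -0.88 to 0.21 (median -0.43). Mouse N203 had the lowest F11r ratio, with 4.64 TPM in its donor cells and 8.54 TPM in its host cells. The exceptions were N005, with 13.55 TPM in donor cells and 12.6 TPM in host cells, and N204, with 6.25 and 5.4 TPM in the same order. N204 is the mouse whose donor library has conflicting labels. Plau was higher in donor cells in 6 of 7 mice (median log2 ratio 0.18, edgeR adjusted p = 0.0835 with the block). The 10 macrophage markers moved the same way as F11r, with 5 of 8 tested lower in donor than in host cells and none higher. B cell and T cell markers differed more, with 6 of 6 lower in each list and medians of the summed TPM 0.0893 and 0.0691 times the host median, without overlap. The part of these cells in the F11r difference was not tested.

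**Figure D4:**
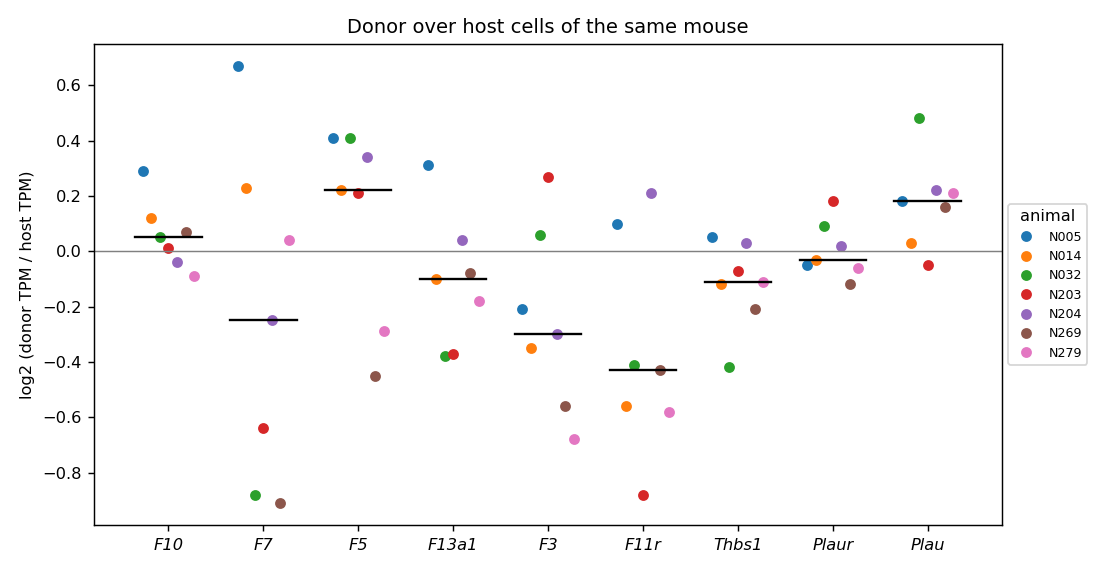
Log2 ratio of donor to host TPM in each of the 7 transplanted mice (points) for the 9 genes, with the median as a line and 0 marking equal levels. F11r lies below 0 in 5 of 7 mice with a median of -0.43, and F10 lies near 0 in all of them.

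Without the donor library of N204, the donor cells kept the same 3 calls over control cells, with F10 at log2 0.89 (edgeR adjusted p = 9.97e-08), F11r at 1.52 (edgeR adjusted p = 1.26e-05) and F7 at 0.93 (edgeR adjusted p = 0.0302). Across 26 alternative fits, F10 and F11r passed in all 26 in host cells and in all 26 in donor cells. The log2 change of F10 ran between 0.75 and 0.88 in host cells and between 0.80 and 0.93 in donor cells. That of F11r ran between 1.52 and 1.95 in host cells and between 1.21 and 1.61 in donor cells.

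In stroma, none of the 9 genes passed (0 of 9 by edgeR, 1 at an unadjusted p below 0.05, 0 by DESeq2 and 0 by limma-voom), where 1.49% of 26191 genes were called. F3 was the gene with the clearest stromal level. It had 28.3, 131 and 272 TPM (lowest, median, highest) in BMT stroma and 69.9, 94 and 189 TPM in control stroma, all above the 6.02 TPM that was the highest of any CD45-sorted library. Stroma and CD45-sorted libraries were made with different kits, so their levels were not tested against each other. The F3 fold in BMT stroma over control stroma was 1.53 (0.945 to 2.49, edgeR adjusted p = 0.795).

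F5 had 3.67, 21 and 37.5 TPM in BMT stroma and 6.8, 14.2 and 25.7 TPM in control stroma, with 2 BMT libraries above and 1 below the control range. Its fold was 1.59 (1.05 to 2.43, edgeR adjusted p = 0.593), and without BMT library N032 its log2 change was 0.81 (edgeR adjusted p = 0.0828). By TPM, N032 was the lowest BMT stroma library for each of the 9 genes. F10 had 0.53, 9.48 and 10 TPM in BMT stroma and 1.97, 5.07 and 9.28 TPM in control stroma (fold 1.45, 0.858 to 2.45, edgeR adjusted p = 0.906).

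F11r had 3.65, 14 and 16.8 TPM in BMT stroma and 5.86, 11.1 and 16.3 TPM in control stroma, a fold of 1.19 (0.82 to 1.72, edgeR adjusted p = 0.988). The difference between this stromal change and the host-cell change was tested in 1 model over both sorts, each change taken within its own kit. It was log2 -1.62 ± 0.34 for F11r (edgeR adjusted p = 0.00501), and F11r was the single member called, where 2.69% of 22991 genes were. Both sorts came from the same mice, and with the animal as a block F11r was at log2 -1.65 ± 0.30 (edgeR adjusted p = 0.00595) and again the single member called, where 1.82% of all genes were. The difference did not pass for F7 (log2 -1.47 ± 0.52, edgeR adjusted p = 0.157) or F10 (-0.23 ± 0.39, edgeR adjusted p = 0.927).

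The remaining genes overlapped between the stroma groups. F13a1 ran between 29.9 and 320 TPM in BMT stroma and between 111 and 294 TPM in control stroma, Thbs1 between 23.6 and 230 TPM and between 79.9 and 170 TPM, and Plaur between 47.3 and 406 TPM and between 86.5 and 290 TPM, in that order of groups. Plau stayed at or below 2.48 TPM and F7 at or below 1.08 TPM in both stroma groups. Erythroid markers separated the stroma groups: the 8 markers summed to 15261 to 117227 TPM in BMT stroma and 2435 to 10646 TPM in control stroma, with 6 of 8 called higher. The 7 stromal markers of the LepR type overlapped, at 529 to 2670 TPM in BMT stroma and 754 to 4549 TPM in control stroma, against at most 5.05 TPM in the host, donor and control cells. Myeloid markers were present in stroma as well. Neutrophil markers summed to 6268 to 58408 TPM in BMT stroma and 9716 to 41511 TPM in control stroma. Monocyte markers summed to 146 to 1105 TPM and 486 to 874 TPM, in that order. The part of erythroid and myeloid cells in the stroma levels, changes and slopes of the 9 genes was not tested.

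In CD11b-positive cells at 52 weeks, with 3 mice a group, none of the 9 genes passed (0 of 9 by edgeR, 5 at an unadjusted p below 0.05, 1 by DESeq2, 0 by limma-voom). Across all genes 0 of 15257 were called, or 0%, with 2506 at an unadjusted p below 0.05, 291 called by DESeq2 and 0 by limma-voom. F11r had 1.7, 4.68 and 35.47 TPM in mice N187, N116 and N129, against 0.71, 0.16 and 0.61 TPM in the 3 control mice. All 3 transplanted mice lay above all 3 controls, but N129 stood far above the other two. The fold was 23.2 (5.09 to 106, edgeR adjusted p = 0.27). DESeq2 gave a log2 change of 4.53 with an adjusted p of 0.0324. With each library left out in turn, the fold ran between 6.42 without N129 (edgeR adjusted p = 0.286) and 59.2 without control N168 (edgeR adjusted p = 0.385).

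F10 was also highest in N129, with 37.4, 31.9 and 130 TPM in N187, N116 and N129, against 30.2, 23.1 and 21.8 TPM in the controls. The groups did not overlap, which held for 15.0% of 15257 genes tested, and the fold of 2.2 (1.27 to 3.8, edgeR adjusted p = 0.273) was 1.32 without N129. F7 had 0.37, 0.45 and 2.33 TPM in those mice, against 0.55, 0.32 and 0.3 TPM in controls, so that N129 was the sole mouse above the control range. Its fold was 3.3 (1.31 to 8.33, edgeR adjusted p = 0.278), and 1.44 without N129.

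Thbs1 had 104, 51.8 and 38.2 TPM in N187, N116 and N129, against 61.4, 253 and 231 TPM in controls, and the groups overlapped through N187 and control N168. Its fold was 0.323 (0.157 to 0.667, edgeR adjusted p = 0.27). F13a1 ran between 123 and 186 TPM in transplanted mice and between 141 and 154 TPM in controls, F5 between 34.0 and 37.1 TPM and between 33.1 and 41.0 TPM, Plaur between 268.79 and 380.24 TPM and between 305.18 and 380.8 TPM, in that order. Plau had 23.9, 25.3 and 23.2 TPM in transplanted mice and 27.1, 26.2 and 24.8 TPM in controls, the highest Plau levels of the 7 groups. F3 stayed between 1.55 and 2.09 TPM in transplanted mice and between 1.57 and 2.31 TPM in controls.

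Several markers set N129 apart in the same libraries. Its 6 T cell markers summed to 49.9 TPM, while the other 5 CD11b libraries held at most 8.48 TPM, and Spp1, an osteoblast and macrophage gene, was at 83.8 TPM in N129 against at most 14.4 TPM elsewhere. Its 9 neutrophil markers summed to 232951 TPM, the lowest of the transplanted mice, whose highest was 335073 TPM, with 349029 to 361296 TPM in controls. Macrophage markers summed to 96.1, 213 and 265 TPM in N187, N116 and N129, against 71.5 to 76.1 TPM in controls, and Marco was at 0 in all 6. Monocyte markers summed to 2637 to 3214 TPM in transplanted mice and 2301 to 2396 TPM in controls, and most of each sum was Ly6c2. By edgeR, 0 of 6 monocyte markers and 0 of 9 macrophage markers tested passed in CD11b cells. Not all of them were raised in N129: its Fn1 and Mrc1 were the lowest of the CD11b libraries. Klf4 and Cd163 overlapped between the groups. The part of the cells behind these markers in the F10, F7 and F11r values was not tested. The transplant effect in CD11b cells minus that in CD45.1 marrow cells passed for none of the 9 genes (0 of 9 by edgeR, 3 at an unadjusted p below 0.05), where 0.109% of 15639 genes were called. The F11r difference was log2 2.63 ± 0.83 (edgeR adjusted p = 0.172).

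Neither the size of the clone nor sex passed a test for any of the 9 genes. Slopes on the log2 of the final blood chimerism over 7 mice lay between -0.16 for F5 and 0.07 for Thbs1 in host cells, and between -0.11 for Plau and 0.36 for F7 in donor cells. In BMT stroma they lay between 0.06 for Plau and 0.81 for Plaur (SE 0.27, unadjusted p = 0.0143, edgeR adjusted p = 1). Without N204 the stroma slopes of Plaur and F3 were 1.58 and 1.28 (edgeR adjusted p = 0.893 for each). Of all genes, 0% passed in each of the 3 slope fits by edgeR, with 591 at an unadjusted p below 0.05 in host cells, 300 in donor cells and 1227 in BMT stroma. Of the 9 genes, 0 were below that unadjusted level in host and donor cells and 2 (F7 and Plaur) in BMT stroma. The interaction of sex with group passed for 0 of 9 genes in each of the 3 sorts by edgeR, with 0 at an unadjusted p below 0.05, where 0%, 0.00719% and 0% of all genes passed in host cells, donor cells and BMT stroma.

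By mean TPM, the 7 groups ordered differently for different genes. F10 ran from donor (74.8 ± 8.55 SD) and host (71.6 ± 5.28) through CD11b cells of transplanted mice (66.5 ± 55.3) to control cells (39.5 ± 4.5), and these neighbours overlapped. Below them stood CD11b control cells (25.1 ± 4.54), BMT stroma (6.85 ± 3.80) and control stroma (5.20 ± 2.18), where the 2 stroma groups overlapped each other and no other neighbours did. F11r was highest in CD11b cells of transplanted mice (14 ± 18.7), BMT stroma (12.5 ± 4.29) and control stroma (11 ± 3.18), followed by host (9.21 ± 3.20) and donor cells (7.30 ± 3.24), all overlapping their neighbours. Control cells (2.44 ± 0.848) lay below the donor range and CD11b control cells (0.493 ± 0.293) below the control range. F7 (means 0.262 to 1.05), F13a1 (146 to 255) and F5 (15.5 to 38.1) showed overlap between every pair of neighbouring groups.

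For F3, the stroma means (148 ± 84.5 in BMT stroma and 104 ± 37.2 in control stroma) were separated by range from donor, host and control cells (2.84 ± 1.16, 3.25 ± 0.894 and 3.77 ± 1.32) and the 2 CD11b groups. Thbs1 averaged 851 TPM in host cells, 780 TPM in donor cells and 1172 TPM in control cells, all of them above the 4 other groups by range, which averaged 64.8 to 182 TPM. Plaur likewise averaged 776 to 792 TPM in donor, host and control cells, above 355 ± 43.1 in CD11b control cells and all lower groups, without overlap at that step. Plau fell into 3 separate levels: the 2 CD11b groups (24.1 to 26.0), the CD45-sorted groups (8.04 to 9.12) and stroma (1.04 to 1.23). These orders describe levels across libraries of different kits and sorts and carry no test.

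A wider list of 56 genes of clotting, fibrinolysis and their receptors, not including the 9, was read next to them. This list too was chosen with earlier results of these data known. Of the 36 tested in host cells, 10 rose and 3 fell, where 8.61% of all genes were called higher and 7.82% lower, with a median log2 change of 0.21 beside 0.01 over all genes tested. Of the 34 tested in donor cells, 14 rose and 5 fell, where 22.7% of all genes were called higher and 23.0% lower, with a median of 0.23 beside 0.00 over all genes. Donor against host cells gave 1 higher and 4 lower of 33 tested (median -0.06), where 14.1% of all genes were called in either direction. Stroma gave 0 higher and 1 lower of 51 (0.08), where 1.49% of all genes were called. The donor against host counts and the stroma counts lie near the shares over all genes. CD11b cells gave 0 and 0 of 33 (0.10), where 0% of all genes were called. Of the 12 other clotting factors and fibrinogen chains, 2 (F12 and Vwf) were expressed enough to test in host cells, and neither passed.

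**Figure D5:**
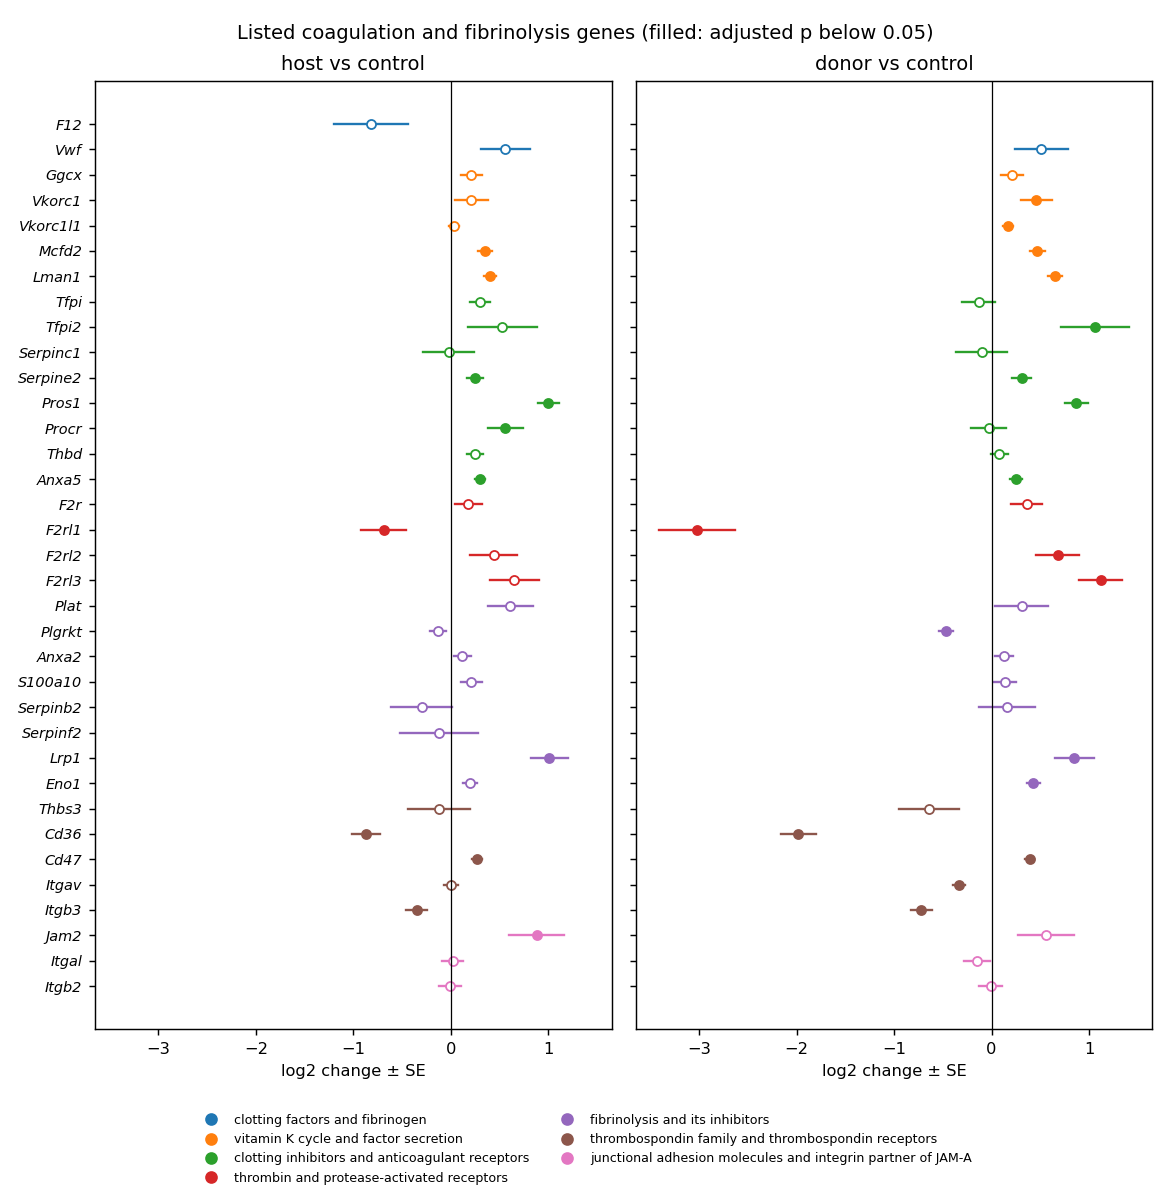
Log2 change with its SE of genes of the wider clotting and fibrinolysis list, host against control cells on the left and donor against control cells on the right, on a shared axis. Pros1 lies at 1.00 on the left, and F2rl1, a scarce transcript, has the largest fall on the right (-3.02).

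Of the clotting inhibitors and anticoagulant receptors, 4 of 8 tested rose in host cells and 4 of 8 in donor cells, and none fell (8.61% and 22.7% of all genes rose, in that order). Pros1, which encodes protein S, the cofactor of activated protein C, averaged 10.6 ± 1.67 TPM in host cells and 9.91 ± 2.64 TPM in donor cells, against 5.27 ± 0.886 TPM in control cells. Its log2 change was 1.00 ± 0.11 in host cells (edgeR adjusted p = 1.97e-05) and 0.87 ± 0.12 in donor cells (edgeR adjusted p = 2.05e-05). Anxa5, which encodes the phosphatidylserine-binding annexin A5, rose by 0.30 in host cells (edgeR adjusted p = 0.00181) and 0.25 in donor cells (edgeR adjusted p = 0.00192) on the log2 scale. Serpine2, a thrombin-inhibiting serpin, rose by 0.25 in host cells (edgeR adjusted p = 0.0406) and 0.31 in donor cells (edgeR adjusted p = 0.0193). Procr, the endothelial protein C receptor, was called in host cells (log2 0.56, edgeR adjusted p = 0.0446) and Tfpi2, a Kunitz-type protease inhibitor, in donor cells (log2 1.06, edgeR adjusted p = 0.0189).

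Of the genes for the vitamin K cycle and factor secretion, 2 of 5 tested rose in host cells, where 8.61% of all genes did, and 4 of 5 in donor cells, where 22.7% did. Lman1, a cargo receptor that carries factors V and VIII out of the endoplasmic reticulum, averaged 36.5 ± 3.00 TPM in host cells, against 27.0 ± 4.14 TPM in control cells (log2 0.40 ± 0.06, edgeR adjusted p = 0.000852), and its log2 change in donor cells was 0.65 ± 0.07 (edgeR adjusted p = 1.93e-06). It was also higher in donor than in host cells (log2 0.24 ± 0.08, edgeR adjusted p = 0.045). This value and the other donor against host values of the wider list came from the fit without the animal as a block, which leaves out the pairing. Among thrombospondin receptors, Cd36 averaged 1.12 ± 0.376 TPM in donor cells and 2.65 ± 0.673 TPM in host cells, against 4.76 ± 1.01 TPM in control cells. It fell by 0.87 on the log2 scale in host cells (edgeR adjusted p = 0.000895) and by 1.98 in donor cells (edgeR adjusted p = 1.29e-07), and was lower in donor than in host cells (log2 -1.10, edgeR adjusted p = 0.000627). Cd47, another thrombospondin receptor, averaged 250 ± 12.4 TPM in donor cells, against 188 ± 6.14 TPM in control cells (log2 0.39, edgeR adjusted p = 1.14e-05). Itgb3, the integrin beta 3 chain, fell by 0.35 in host cells (edgeR adjusted p = 0.0348) and by 0.72 in donor cells (edgeR adjusted p = 4.08e-05).

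F2rl1, which encodes protease-activated receptor 2, a receptor cleaved by the tissue factor and factor VIIa complex and by factor Xa, averaged 0.109 ± 0.0914 TPM in donor cells and 0.546 ± 0.165 TPM in host cells, against 0.809 ± 0.236 TPM in control cells. It fell by 3.02 on the log2 scale in donor cells (edgeR adjusted p = 7.77e-06) and by 0.69 in host cells (edgeR adjusted p = 0.0452). F2rl1 was scarce in all these cells, and its SD in donor cells was close to its mean. Plgrkt, a plasminogen receptor, fell by 0.47 in donor cells (44.3 ± 4.12 TPM, against 59.0 ± 5.65 TPM in control cells, edgeR adjusted p = 6.53e-05), and was lower in donor than in host cells (log2 -0.34, edgeR adjusted p = 0.00823). Itgav, the integrin alpha V chain, and Procr were also lower in donor than in host cells (log2 -0.33, edgeR adjusted p = 0.000409, and -0.58, edgeR adjusted p = 0.0283). In stroma the gene that passed was Tfpi, the inhibitor of tissue factor and factor VIIa. It averaged 14.8 ± 4.72 TPM in BMT stroma and 39.0 ± 16.8 TPM in control stroma (log2 -1.30 ± 0.30, edgeR adjusted p = 0.0396).

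The genes whose levels followed each of the 9 most closely were listed by Pearson correlation of log2 CPM over the 22 host, donor and control libraries. This is a description: the libraries share group differences and depth, and donor and host libraries of a mouse share the animal. F10 followed Tspo (r = 0.923), C4b (0.922) and Hsd17b4 (0.92) most closely. Ifi30 (0.929) and Ube2f (0.928) were among the genes closest to F11r. F13a1 followed Ccr2 (0.885), a chemokine receptor of inflammatory monocytes, and after the mean of each group was subtracted Ccr2 was still first (0.927). F7, with few reads, had lower values, led by Dcun1d2 (0.81).

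F5 was closest to Larp4b (0.93), F3 to Sfxn5 (0.908), Thbs1 to Fosl2 (0.882), Plaur to Clec4e and Slc16a3 (0.943 each) and Plau to Usp46 (0.801). Once group means were subtracted, Thbs1 was again closest to Fosl2 (0.928), F5 to Syne1 (0.933), F3 to Lmnb1 (0.905), Plaur to Stx11 (0.958), F10 to Nme6 (0.79), F11r to Naa15 (0.832), F7 to Tdrd3 (0.77) and Plau to Myd88 (0.783). Between the 9 genes themselves, F10 and F11r had r = 0.81 over the 22 libraries but -0.06 after group means were subtracted, so the shared part lay between the groups. F10 and its neighbour F7 had 0.74 and 0.45 on the same scales. After subtraction F3, F5, Thbs1 and Plaur had r of 0.67 to 0.79 with each other, while Plau had 0.55 with F3, 0.47 with F5 and with Plaur, and 0.18 with Thbs1. F11r ran the other way from F3 within groups (r = -0.67).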

How the data were processed

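Bulk RNA-seq of sorted mouse marrow cells was used as deposited: gene counts made by the authors, and TPM values deposited beside them. Per the submitters' processing notes, reads were processed with STAR 2.7.3a, featureCounts, Subread 1.6.2 and RSEM 1.3.3 on GRCm39, with no role given for each tool. The step that made the TPM values is not given in the sources used here. In stroma, 50.1% of nonzero TPM values end in 5 at the third decimal, as a mean of 2 runs would. A further count table identical to the one used was left out. The hematopoietic kit marks strand, and whether counting used strand is not given in the sources used here.

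Gene identifiers were matched to symbols through a RefSeq gene table (51948 matched). Counts were tested with edgeR 4.0.16 in R 4.3.3: filterByExpr, TMM scaling, quasi-likelihood test, sex as covariate except in the all-male CD11b mice, Benjamini-Hochberg adjustment over all genes tested, threshold 0.05. TPM served for levels and, as log2(TPM + 1) and log2(TPM + 0.1) with limma 3.58.1, as an alternative. DESeq2 1.42.0, limma-voom, other filters, single sexes, blocks and leaving out each library were the other alternatives. Fold intervals are 95% normal intervals of the edgeR log2 change, and the precision of low genes is limited by depth. With few mice these intervals are narrower than the test implies, most of all in CD11b cells. There the interval of Plau was 0.725 to 0.981, although its unadjusted edgeR p was 0.0558. P-values measure the spread between mice where each mouse gives 1 library to a fit. In donor against host cells, and in stroma minus CD45.1 cells, a mouse gave more than 1 library. Without the animal as a block, those fits treat the libraries of a mouse as independent. The steps were tested on simulated data.

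Donor and host libraries of a mouse are paired by the labels (their deviations from group means correlated at 0.176 to 0.567 over 7 pairs). Of transplanted and control mice, 5 pairs shared a day of euthanasia, with correlations of 0.229 to 0.275 for host and control, 0.147 to 0.27 for donor and control, and 0.052 to 0.525 for stroma. In CD11b cells the correlation was -0.046 to 0.076.

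The 9 genes, the wider lists and the markers were chosen with earlier results of these data known. Of the wider list, up to 4 genes per comparison and direction with the smallest adjusted p are named, plus every clotting factor or inhibitor that passed. For likeness, the 3 highest correlations of log2(CPM + 0.5) were taken per gene, of which the text names 1 to 3. A gene of the wider list is counted with the list but not reported here by name.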

Additional observations from a re-analysis of the deposited data

Results flagged for a closer look

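F13a1 in donor cells had its highest value, 341 TPM, in mouse N005, far from the other 6 donor libraries. F5 in control cells had its lowest value, 18.7 TPM, in mouse N051. F7 in BMT stroma had its highest value, 0.915 TPM, in mouse N204, and F3 in control stroma its highest, 189 TPM, in mouse N280. These 4 came from 45 groups of values examined for a library far from the rest, and chance alone gives about 1 in 20. The change of F11r in stroma minus its change in CD45.1 cells was log2 -1.62 (edgeR adjusted p = 0.00501).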

How the results depend on the processing

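Of the log2 changes of the 9 genes recomputed under the alternatives, 1328 kept direction and side of the threshold, 75 changed sign, 23 lost a call and 9 gained one; none of those that changed sign passed in either setting. Of the counts of genes passing, 153 stayed within 1.5 times and 7 did not; all 387 mean levels recomputed without 1 library, an alternative added after seeing the data, moved by less than 1 SD. The count in host cells was 4, and 2 in males, 2 in females and 2 with the replicate block by day of euthanasia. In donor cells it was 3, and 3 to 5 when each library was left out in turn (5 without donor library N203). Donor against host cells gave 0, and 2 with the replicate block by animal. CD11b cells gave 0, and 1 by DESeq2 and 1 with no filter. For the stromal change minus the CD45.1 change, the replicate block by animal, added after seeing the data, gave 1 call, as without it. The block changed no other call than those of F7, F13a1, Thbs1, F10 and F11r given with the results. F7 was not tested under the stricter filter in donor cells, stroma or CD11b cells. Single sexes held fewer mice. In host cells, donor cells and stroma, the day block compares the groups through the 5 days shared by transplanted and control mice, so it too rests on fewer mice. Why these values moved was not tested.

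Sign changes in host cells were F5 (0.03 on either TPM scale, 0.03 in females), Plaur (0.03 on either TPM scale, 0.10 with the day block) and Plau (0.04 with the day block). In donor cells they were F5 (-0.13 in females) and Plaur (0.01 with no filter, 0.03 on either TPM scale, 0.02 in males, 0.11 with the day block). For donor against host cells they were F5 (-0.16 in females), F7 (-0.03 by limma-voom, -0.06 and -0.20 on log2(TPM + 1) and log2(TPM + 0.1), -0.22 in females), F3 (0.18 in males) and Plaur (-0.04 in females). In stroma they were F13a1 (-0.05 on either TPM scale), Thbs1 (-0.04 by limma-voom, -0.12 on either TPM scale) and Plau (-0.05 by limma-voom, -0.13 on log2(TPM + 0.1)). Slopes without the sex term were -0.01 for F10 and 0.04 for F11r in host cells, 0.01 for F3 in donor cells and -0.09 for F13a1 in BMT stroma. Leaving out each library in turn, the ranges that crossed 0 were F5 -0.11 to 0.06 and Plaur -0.10 to 0.02 in host cells; F5 -0.01 to 0.17 and Plaur -0.09 to 0.06 in donor cells; F7 -0.09 to 0.19, F3 -0.30 to 0.01, Thbs1 -0.23 to 0.02 and Plaur -0.06 to 0.11 for donor against host; Thbs1 -0.01 to 0.28 and Plau -0.11 to 0.51 in stroma; and F13a1 -0.33 to 0.04 in CD11b cells. For the slopes they were F13a1 -0.08 to 0.03, F3 -0.47 to 0.12, F11r -0.15 to 0.35, Thbs1 -0.36 to 0.24 and Plaur -0.10 to 0.03 in host cells; F3 -0.66 to 0.06 and Thbs1 -0.35 to 0.26 in donor cells; and F7 -0.01 to 0.67, F3 -0.11 to 1.28 and Plau -0.31 to 1.39 in BMT stroma.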
